A study of Mus musculus with 6 samples.

Results

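The 9 genes described here are Nt5e, Entpd1, Adora2a, P2rx7, P2rx4, P2ry10, Dpp4, Ada and Adk. All but P2ry10 and Dpp4 make, sense or remove adenosine or extracellular nucleotides. The set was chosen by name, as adenosine and extracellular nucleotide genes, by someone who had results of these data in view. It holds 9 of the 55335 genes in the deposited count table. RNA was sequenced from CD4 T cells of the mouse colon lamina propria, the connective tissue under the gut epithelium. Splenic naive CD4 T cells of TcfGFP mice, which carry a GFP reporter for Tcf7, had been placed in Rag1 KO hosts, which cannot make T or B cells, to bring on colitis. The GFP-positive cells, labelled TCF7+ and stem-like, were compared with the GFP-negative cells, labelled TCF7- and effector, in 3 libraries of each. All 6 libraries share the donor strain, the transfer and the inflamed Rag1 KO host, so there is no healthy or untransferred control. The labels used here give no age, sex or time after transfer. Nor do they say whether each library came from its own mouse, so the spread that p-values rest on may be technical.

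ATP that leaves stressed or dying cells is a danger signal. CD39, the product of Entpd1, cuts it to AMP, and CD73, the product of Nt5e, cuts AMP to adenosine. Adenosine dampens T cells through the A2A receptor, which raises cAMP, until adenosine deaminase turns it into inosine or adenosine kinase returns it to AMP inside the cell. ATP itself opens the P2X channels, of which P2X7 can drive T cells of the gut into death.

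The 6 libraries held 4309500 to 7462076 counts. Levels between libraries are given as CPM, the usual scaled share of a library's counts, here taken over the tested genes with TMM factors, and 3 counts correspond to 0.43 to 0.69 CPM. Tcf7, the gene the reporter stands for, was at 121, 140.5 and 71.3 CPM in GFP-negative replicates 1, 2 and 3 and at 237, 183 and 140.8 CPM in GFP-positive replicates 1, 2 and 3. Its groups thus touched without overlapping, with a log2 fold change of 0.75 ± 0.26 (SE) and an adjusted p = 0.367 (edgeR). Cd4 lay between 510.03 and 695 CPM in all 6 libraries. Cd8a was at 113, 55.3 and 31.4 CPM in GFP-negative replicates 1, 2 and 3. In GFP-positive replicates 1, 2 and 3 Cd8a was at 46.1, 25.3 and 10.3 CPM. The 6 T cell identity genes, Cd4 among them, together took 0.383% to 0.540% of counts. Apart from Cd4 they are CD3 and T cell receptor genes, which CD8 T cells share, so this sum cannot tell the 2 kinds apart.

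GFP-positive replicate 3 stood apart. Its 10 myeloid markers together took 0.515% of counts, against 0.00812% to 0.0134% in the other 5 libraries, all 10 were highest there, and the macrophage marker Adgre1 was at 0 in the other 5. Dendritic markers took 0.440% against 0.0148% to 0.0320%, with 4 of 6 genes highest there and Xcr1 and Zbtb46 not among them. Natural killer markers took 0.0470% against 0.00122% to 0.00508%, through Tyrobp, which myeloid cells share, at 487 CPM against 4.60 to 35.2 CPM, while Ncr1 (7.60 CPM, against 8.19 CPM in GFP-negative replicate 2) and Klrb1c (8.61 CPM, against 7.82 CPM in GFP-positive replicate 2) did not stand apart. Epithelial markers took 0.0225% against 0.00165% to 0.00332%, and stromal markers 0.0329% against 0.0000656% to 0.00100%. GFP-positive replicate 3 also had the most genes detected, 17119 against 14538 to 15346. In bulk RNA, fewer cells of a type and less RNA per cell cannot be told apart. For several genes below the difference is therefore also given without that library.

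All 9 genes passed the filter on low counts and were among the 11074 genes tested. None passed an adjusted p of 0.05 in edgeR's quasi-likelihood test, where 0.108% of all tested genes did (12 genes, 4 higher and 8 lower in GFP-positive cells). At an unadjusted p under 0.05 there was 1, Nt5e, against 10.3% of all tested genes. Nt5e was also the 1 gene of the 9 whose 3 GFP-positive libraries all lay above the 3 GFP-negative ones, against 7.25% of all tested genes, and none lay wholly below, against 8.8%. Of the 9 log2 fold changes 6 were positive and 3 negative, with a median of 0.29, beside 0.02 over all tested genes, of which 51.6% were positive. These shares describe the 9 genes and are no test, since the set was named with the contrast known.

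**Figure D1:**
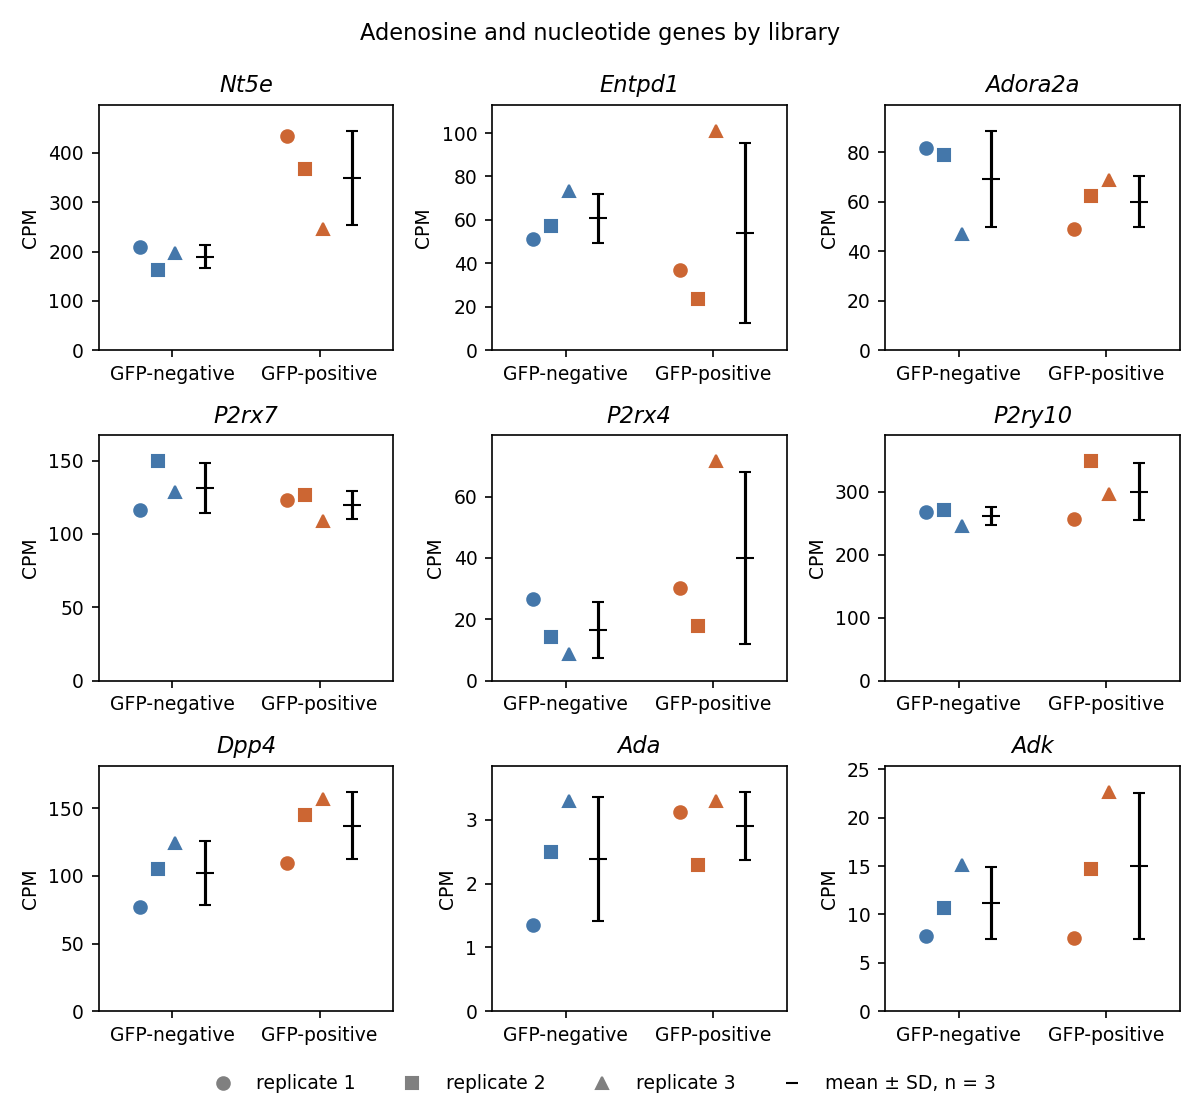
CPM of the 9 genes in each library (symbols, one shape for each replicate number) with the mean ± SD of 3 libraries beside them. Nt5e is the gene whose groups do not overlap, from 163 to 208 CPM without GFP and from 247 to 434 CPM with it, and Entpd1, P2rx4, Dpp4, Ada and Adk are highest in GFP-positive replicate 3.

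Of the 2 enzymes in a row that turn ATP into adenosine, the gene of the last had more RNA in each GFP-positive library than in any GFP-negative one. Nt5e (chr9:88327197-88372092, plus strand, in mm10 coordinates of GENCODE M21, as for all genes here) encodes this AMP-cutting enzyme, CD73. It was at 208, 163 and 196 CPM in GFP-negative replicates 1, 2 and 3 and at 434, 367 and 247 CPM in GFP-positive replicates 1, 2 and 3. The lowest GFP-positive library, replicate 3, was still above the highest GFP-negative one. The means were 349 ± 95.2 CPM (SD, n = 3) and 189 ± 23.5 CPM (SD, n = 3), a ratio of 1.85. On the log2 scale the difference was 0.88 ± 0.20 (SE), with an adjusted p = 0.118 over all tested genes (edgeR).

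Whether Nt5e was called depended on the fit. Without GFP-positive replicate 3 the Nt5e difference was 1.09 ± 0.15 (SE) with an adjusted p = 0.0121 (edgeR), in a comparison where 0.452% of tested genes were called. DESeq2 called it at 0.89 and an adjusted p = 0.0041, beside 1.28% of the genes it tested, and edgeR with no filter on low counts at an adjusted p = 6.52e-05, beside 1.78% of genes. Over the 16 alternatives its difference stayed positive, from 0.70 to 1.09, with adjusted p values from 6.52e-05 to 0.692. CD73 is known on naive, memory and regulatory T cells, so the markers of those cells are set beside it. The 3 naive and central memory markers took 0.0130% to 0.0142% of counts in GFP-negative and 0.0187% to 0.0252% in GFP-positive libraries. The 5 regulatory T cell markers went the other way, from 0.0949% to 0.120% in GFP-negative and from 0.0732% to 0.0884% in GFP-positive libraries. For both lists the two-sided exact permutation test over libraries gave p = 0.1, the smallest that 3 against 3 allows, and 0.55 after adjustment over 11 marker lists. Their part in the Nt5e difference was not tested.

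Entpd1 (chr19:40612366-40741602, plus strand), which encodes the ATP-cutting CD39, was at 51.4, 57.3 and 73.5 CPM in GFP-negative replicates 1, 2 and 3. In GFP-positive replicates 1, 2 and 3 it was at 37.1, 23.7 and 101 CPM. Replicates 1 and 2 of the GFP-positive cells were thus the lowest of the 6 libraries and replicate 3 the highest. With all 6 the difference was -0.16 ± 0.52 (SE), with an adjusted p = 0.948 (edgeR). Without GFP-positive replicate 3 it was -0.98 ± 0.28 (SE), with an adjusted p = 0.176 (edgeR), so the size of this difference rested on the library in which the myeloid markers were high. Without GFP-positive replicate 2 its sign turned, to 0.20. Regulatory T cells are rich in CD39, and their factor Foxp3 was at 12.99, 33.0 and 2.41 CPM in GFP-negative replicates 1, 2 and 3. In GFP-positive libraries Foxp3 had no count in replicates 1 and 2 and stood at 0.86 CPM in replicate 3. Among GFP-negative libraries, replicate 3 had the lowest Foxp3, at 2.41 CPM, and the highest Entpd1, at 73.5 CPM. Of the other regulatory T cell markers, Il2ra, Ikzf2 and Tnfrsf18 overlapped between the groups, and Il2ra was highest in GFP-negative replicate 3, at 170 CPM. The part of regulatory T cells and of myeloid cells in the Entpd1 levels was not tested.

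Set against each other within a library, Nt5e exceeded Entpd1 in all 6. The ratio of their TPM values (a level divided by gene length, so that genes can be compared) was 2.63, 1.85 and 1.73 in GFP-negative replicates 1, 2 and 3. It was 7.60, 10.1 and 1.58 in GFP-positive replicates 1, 2 and 3. The GFP-positive libraries were thus both the highest and the lowest, with replicate 3 the one below all GFP-negative libraries. As a ratio chosen after the values were seen, this is a description only.

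**Figure D2:**
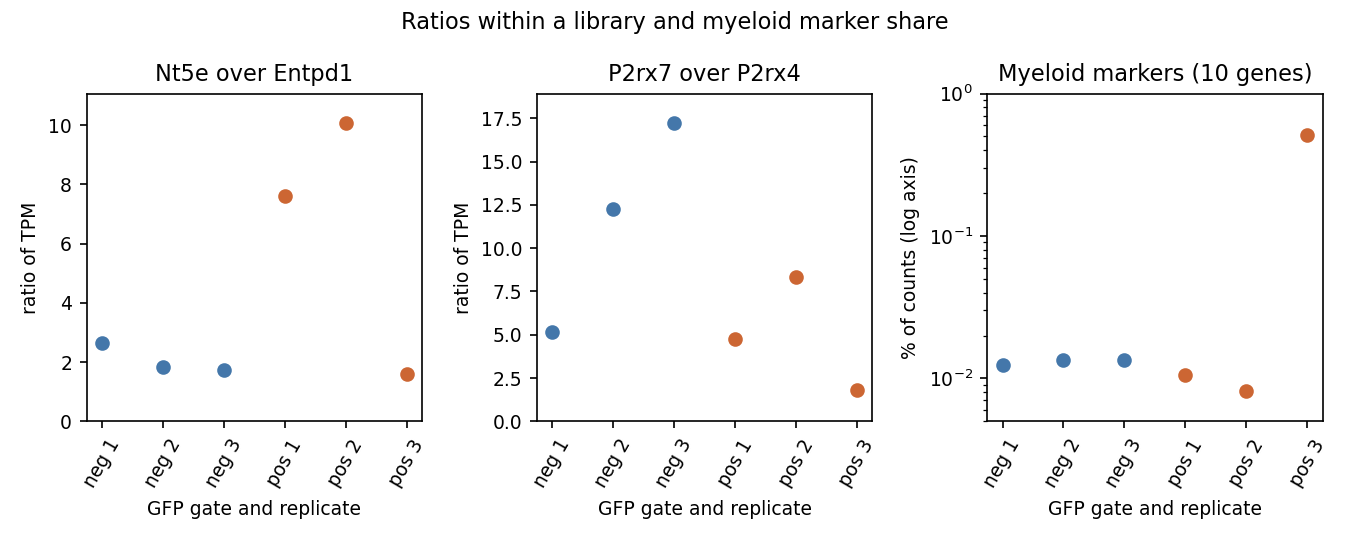
Ratio of TPM of Nt5e over Entpd1 (left) and of P2rx7 over P2rx4 (middle), and the share of counts of 10 myeloid markers on a log axis (right), 1 point for each library (neg, GFP-negative; pos, GFP-positive). Both ratios are lowest in GFP-positive replicate 3, at 1.58 and 1.80, where the myeloid markers reach 0.515% of counts.

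Adenosine is sensed by 4 receptors, and in these cells Adora2a was the 1 of them that passed the filter. Adora2a (chr10:75316877-75334784, plus strand) encodes the A2A receptor. It was at 81.8, 79.1 and 46.9 CPM in GFP-negative replicates 1, 2 and 3 and at 48.8, 62.5 and 68.8 CPM in GFP-positive replicates 1, 2 and 3. The groups overlapped, and the lowest value of all was GFP-negative replicate 3. The difference was -0.21 ± 0.24 (SE), with an adjusted p = 0.833 (edgeR), and ran from -0.41 without GFP-negative replicate 3 to -0.07 without GFP-negative replicate 1. The ratio of Nt5e to Adora2a in TPM, enzyme over receptor, was 0.907, 0.733 and 1.49 in GFP-negative replicates 1, 2 and 3. It was 3.17, 2.09 and 1.27 in GFP-positive replicates 1, 2 and 3, so that the groups overlapped through GFP-positive replicate 3 and GFP-negative replicate 3.

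Adenosine is removed by 2 enzymes, and both were weak at the RNA level. Ada (chr2:163726584-163750239, minus strand) encodes adenosine deaminase, which turns adenosine into inosine. It was at 1.36, 2.50 and 3.29 CPM in GFP-negative replicates 1, 2 and 3 and at 3.12, 2.30 and 3.30 CPM in GFP-positive replicates 1, 2 and 3, from 7 to 23 counts a library. The difference was 0.29 ± 0.80 (SE), with an adjusted p = 0.937 (edgeR), and ran from 0.0094 without GFP-negative replicate 1 to 0.61 without GFP-negative replicate 3. At this depth only a large difference in Ada was detectable. Adk (chr14:21052574-21448569, plus strand) encodes adenosine kinase, which returns adenosine to AMP. It was at 7.75, 10.7 and 15.1 CPM in GFP-negative replicates 1, 2 and 3 and at 7.62, 14.7 and 22.7 CPM in GFP-positive replicates 1, 2 and 3. Its difference of 0.43 ± 0.46 (SE; edgeR adjusted p = 0.817) came to 0.0039 without GFP-positive replicate 3 and to 0.74 without GFP-positive replicate 1. The ratio of Adk to Ada in TPM lay between 1.003 and 1.34 in GFP-negative libraries and between 0.574 and 1.61 in GFP-positive libraries, which spanned them.

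Dpp4 (chr2:62330073-62412231, minus strand) encodes CD26, a surface peptidase. It was at 77.3, 105 and 125 CPM in GFP-negative replicates 1, 2 and 3 and at 109, 145 and 157 CPM in GFP-positive replicates 1, 2 and 3. In both groups replicate 1 was the lowest and replicate 3 the highest. GFP-positive cells had a mean of 137 ± 24.9 CPM (SD, n = 3), and GFP-negative cells one of 102 ± 23.7 CPM (SD, n = 3). The difference was 0.42 ± 0.20 (SE), with an adjusted p = 0.499 (edgeR). It was 0.33 without GFP-positive replicate 3 and, with 1 library left out at a time, ran from 0.26 (without GFP-negative replicate 1) to 0.60 (without GFP-negative replicate 3). The antisense gene Gm13561 shares 232 exonic bases with Dpp4 and held 0 to 3 counts. Per length, Dpp4 exceeded Ada in all 6 libraries, at 35.3 to 64.6 TPM against 1.96 to 4.70 TPM.

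The ATP-gated channels P2rx7 (chr5:122643911-122691432, plus strand) and P2rx4 (chr5:122707544-122729738, plus strand) are neighbours, 16111 bases apart. P2rx7, which encodes the channel that opens at high ATP, was at 116, 149 and 128 CPM in GFP-negative replicates 1, 2 and 3 and at 123, 127 and 109 CPM in GFP-positive replicates 1, 2 and 3. The groups overlapped, with means of 131 ± 16.8 CPM and 119.7 ± 9.27 CPM (SD, n = 3 each). The difference was -0.13 ± 0.15 (SE), with an adjusted p = 0.830 (edgeR). It was -0.06 without GFP-positive replicate 3 and ran from -0.21 without GFP-negative replicate 1 to -0.03 without GFP-negative replicate 2. Surface P2X7 on mouse T cells is also opened by the enzyme ART2.2, the product of Art2b, which uses extracellular NAD.

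P2rx4, which encodes a channel that opens at low ATP, had the largest difference of the 9. It was at 26.6, 14.3 and 8.77 CPM in GFP-negative replicates 1, 2 and 3. In GFP-positive replicates 1, 2 and 3 it was at 30.3, 17.9 and 71.4 CPM. Outside GFP-positive replicate 3 the 2 groups overlapped, from 8.77 to 26.6 CPM against 17.9 and 30.3 CPM. The difference was 1.27 ± 0.58 (SE), with an adjusted p = 0.516 (edgeR), and it was 0.55 ± 0.45 (SE), with an adjusted p = 0.696, without that library. With no filter on low counts edgeR called it, at an adjusted p = 0.00869. P2X4 is known as a channel of macrophages, and the part of the myeloid RNA in the value of GFP-positive replicate 3 was not tested. The ratio of P2rx7 to P2rx4 in TPM was 5.14, 12.3 and 17.2 in GFP-negative replicates 1, 2 and 3 and 4.78, 8.31 and 1.80 in GFP-positive replicates 1, 2 and 3.

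By the measure set for the gene with the largest difference, the 3 genes whose log2 CPM followed P2rx4 most closely over the 6 libraries were Synj1, Prpf6 and Irf2bp2, with Pearson's r of 0.99, 0.98 and 0.97. Over the 5 libraries other than GFP-positive replicate 3, r was 0.98, 0.96 and 0.95. Of 9054 candidate genes 20 had an r over 0.95 with P2rx4 over 6 libraries, so these 3 are the nearest of many. Pearson's r takes no account of the size of a change. P2rx4 ran from 8.77 to 71.4 CPM, against 25.0 to 49.3 for Synj1, 116 to 145 for Prpf6 and 25.2 to 52.5 for Irf2bp2. The 6 points share depth and library make-up, the 5 libraries are among those used for the choice, and the likeness is a description.

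P2ry10 (chrX:107088492-107104974, plus strand), whose product is named as a nucleotide receptor but responds to lysophosphatidylserine, had the highest level per length of the 9 genes. It was at 268, 271 and 245 CPM in GFP-negative replicates 1, 2 and 3 and at 256, 348 and 297 CPM in GFP-positive replicates 1, 2 and 3. GFP-positive cells had a mean of 300.3 ± 46.0 CPM, GFP-negative cells one of 261 ± 13.9 CPM (SD, n = 3 each), and the groups overlapped. The difference was 0.20 ± 0.15 (SE), with an adjusted p = 0.712 (edgeR), and ran from 0.09 without GFP-positive replicate 2 to 0.30 without GFP-positive replicate 1.

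Because the cells were divided by a Tcf7 reporter, the stretches just before the RefSeq starts of the 9 genes were searched on both strands for CTTTGA, a core letter run of TCF/LEF sites. The RefSeq table (GRCm38.p6) held 12 starts for 8 of the 9 genes, Adora2a not among them. In the 250 bases before the start, 3 of 12 held the run, beside 13.8% of 32851 such windows of all genes. The 3 are shown 5′ to 3′ on the gene's strand, with matches in capitals, so that the surroundings of each match can be read. They lie at chr5:122707294-122707543 for P2rx4, directly before the gene, with the match 81 bases before the start. They lie at chr5:122650133-122650382 for the second start of P2rx7, in an intron of the longer P2rx7 transcript, with the match 99 bases before the start, and at chrX:107088242-107088491 for P2ry10, with the match 82 bases before the start. In the P2ry10 stretch, ACGTG, the core run of hypoxia response elements, is also in capitals.
P2rx4: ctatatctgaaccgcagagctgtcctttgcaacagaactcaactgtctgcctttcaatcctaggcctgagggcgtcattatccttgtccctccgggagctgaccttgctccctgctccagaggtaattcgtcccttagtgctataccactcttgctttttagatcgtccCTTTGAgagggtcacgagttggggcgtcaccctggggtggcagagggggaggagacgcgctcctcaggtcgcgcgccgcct
P2rx7: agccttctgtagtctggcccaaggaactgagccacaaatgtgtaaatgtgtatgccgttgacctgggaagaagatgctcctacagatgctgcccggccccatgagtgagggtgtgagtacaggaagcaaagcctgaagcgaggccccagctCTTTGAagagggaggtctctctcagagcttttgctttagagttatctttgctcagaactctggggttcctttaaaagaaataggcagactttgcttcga
P2ry10: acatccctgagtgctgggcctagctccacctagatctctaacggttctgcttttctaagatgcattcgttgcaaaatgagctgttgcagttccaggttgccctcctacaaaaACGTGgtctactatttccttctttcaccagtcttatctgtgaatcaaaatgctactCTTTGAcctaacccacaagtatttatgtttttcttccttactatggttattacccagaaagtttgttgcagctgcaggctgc

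The 3 stretches differ in make-up, with a GC content of 57.2% before P2rx4, 50.0% before the second P2rx7 start and 43.2% before P2ry10. The genes behind them had log2 fold changes of 1.27 ± 0.58, -0.13 ± 0.15 and 0.20 ± 0.15 (SE), none with an adjusted p under 0.05 (edgeR). A link between the run and the difference between the gates was not tested. The Nt5e window is wholly exonic in GENCODE M21, inside the gene, so it says nothing about the bases before the M21 start. Other windows of 250 bases are exonic in part, with 185 bases before the first Adk start and 118 before the first Entpd1 start. There are 99 such bases before the second P2ry10 start and 16 before the first P2rx7 start. The ACGTG run was found in 1 of the 12 windows, beside 16.6% of all windows, and TGACGTCA, the full cAMP response element, in 0 of 12, beside 1.55%. A match says only that these letters are there, and the absence of one only that they are not in this window.

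**Figure D3:**
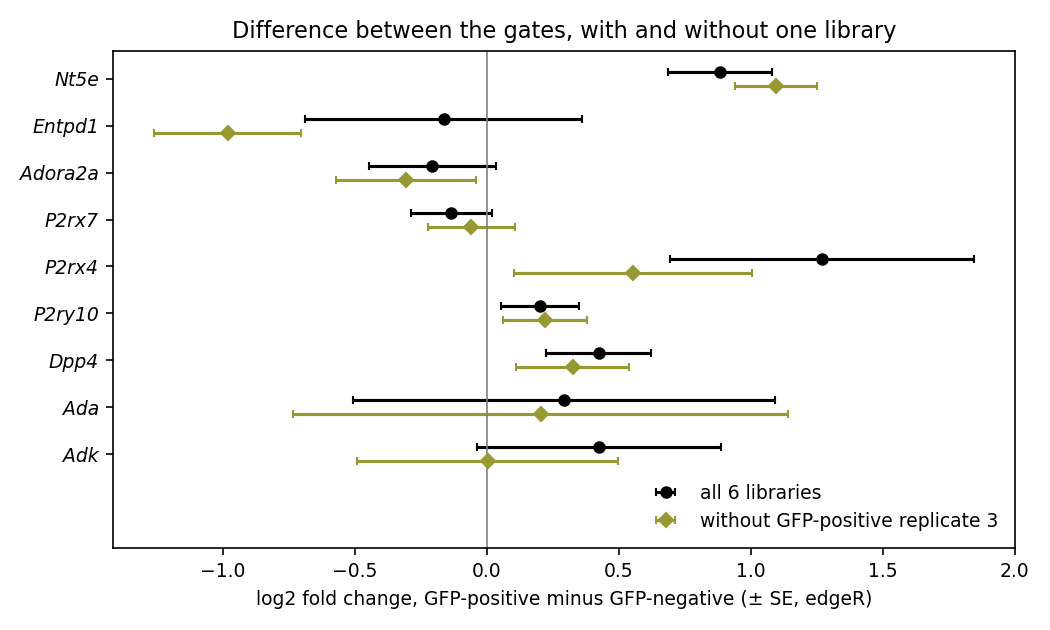
Log2 fold change, GFP-positive minus GFP-negative, of the 9 genes with all 6 libraries (black circles) and without GFP-positive replicate 3 (diamonds), with ± SE from edgeR. Nt5e goes from 0.88 to 1.09, Entpd1 from -0.16 to -0.98 and P2rx4 from 1.27 to 0.55, while Adora2a, P2rx7, P2ry10, Dpp4 and Ada keep their sign and move by less than their SE.

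The 9 genes differed widely in level per length. The mean TPM over the 6 libraries was 268 for P2ry10 (235 to 328), 89.5 for Nt5e (56.8 to 151), 60.2 for both Adora2a (43.8 to 77.4) and P2rx7 (46.9 to 75.0) and 53.6 for Dpp4 (35.3 to 64.6). It was 28.9 for Entpd1 (11.9 to 46.4), 11.1 for P2rx4 (3.57 to 26.1), 4.301 for Adk (2.63 to 6.82) and 3.75 for Ada (1.96 to 4.70). The P2ry10 range lay above the Nt5e range, and every other pair of neighbours in this order overlapped. Of the 11069 tested genes with a TPM, 94.7% lay below P2ry10, 85.0% below Nt5e, 62.2% below Entpd1, 35.9% below P2rx4 and 12.4% below Ada. Among the 9, Nt5e, Entpd1 and Adora2a, for surface proteins that make or sense adenosine, thus had more RNA per length than Ada and Adk. Outside the 9 this did not hold for Acpp, for a phosphatase described below that can also cut AMP at the cell surface. Its mean was 5.54 TPM (1.91 to 10.4), which overlapped Ada and Adk.

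The rest of the pathway was read from a list of 86 genes in 13 roles that includes the 9. Of them 55 were tested, 31 were not, and 11 of those 31 had no count in any library. None of the 55 passed an adjusted p of 0.05, against 0.108% of all tested genes, while 26 were positive and 29 negative with a median of -0.10. At an unadjusted p under 0.05, 1 was higher (Nt5e) and 4 were lower, against 10.3% of tested genes in either direction. By overlap, 1 lay wholly higher and 6 wholly lower in GFP-positive libraries, against 7.25% and 8.8% of all tested genes. Besides the 9, the 8 genes of the list with the smallest p are named below, and all 8 were lower in GFP-positive cells.

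The cAMP branch below the A2A receptor had 15 of 17 genes tested, 5 positive and 10 negative, with a median of -0.17. Prkaca, which encodes a catalytic subunit of protein kinase A, was at 27.7, 29.3 and 29.2 CPM in GFP-negative replicates 1, 2 and 3 and at 6.58, 8.97 and 14.9 CPM in GFP-positive replicates 1, 2 and 3. Its groups were far apart, at 28.7 ± 0.888 and 10.2 ± 4.29 CPM (SD, n = 3 each), a log2 fold change of -1.49 ± 0.36 (SE) with an adjusted p = 0.142 (edgeR). Without GFP-positive replicate 3 it was called, at -1.88 ± 0.36 (SE) and an adjusted p = 0.0485 (edgeR), and DESeq2 called it on all 6 libraries at an adjusted p = 0.0348. The other catalytic subunit gene of the list, Prkacb, named after its values were seen, was at 243 to 399 CPM, with overlapping groups, a difference of 0.30 ± 0.17 (SE) and an adjusted p = 0.608 (edgeR). Prkar2a, for a regulatory subunit, was at 17.7 to 23.6 CPM in GFP-negative libraries and at 8.28 to 15.4 CPM in GFP-positive ones, without overlap (-0.73 ± 0.36, SE; edgeR adjusted p = 0.521). Adcy3, for an adenylyl cyclase, was at 13.2 to 19.3 CPM and 4.33 to 13.8 CPM in the same order (-0.83 ± 0.46, SE; edgeR adjusted p = 0.598), and its groups overlapped. Leaving out 1 GFP-positive library moved Adcy3 to between -0.49 (without replicate 1) and -1.24 (without replicate 3).

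Of the nucleoside transporters, which carry adenosine into the cell, 4 of 6 were tested, 1 positive and 3 negative. Slc28a2, a sodium-driven carrier, was at 115, 100.5 and 100.2 CPM in GFP-negative replicates 1, 2 and 3 and at 79.1, 71.0 and 53.9 CPM in GFP-positive replicates 1, 2 and 3. Its difference was -0.63 ± 0.18 (SE), with an adjusted p = 0.232 (edgeR), the groups did not overlap, and it was -0.47 without GFP-positive replicate 3. Slc29a1, the equilibrative carrier ENT1, was at 32.3 to 40.3 CPM and 24.4 to 32.3 CPM in the same order, just apart (-0.46 ± 0.25, SE; edgeR adjusted p = 0.582), and its difference was -0.60 without GFP-positive replicate 3.

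Gpr34, like P2ry10 a receptor for lysophosphatidylserine, had a negative difference where that of P2ry10 was positive. It was at 140.1, 106 and 99.8 CPM in GFP-negative replicates 1, 2 and 3 and at 86.6, 63.0 and 59.1 CPM in GFP-positive replicates 1, 2 and 3, with no overlap. Its difference was -0.73 ± 0.20 (SE), with an adjusted p = 0.209 (edgeR), and with no filter on low counts it was called at an adjusted p = 0.0159. Acpp, for an acid phosphatase that can also cut AMP at the cell surface, was at 14.7 to 25.5 CPM in GFP-negative libraries and at 4.68 to 16.6 CPM in GFP-positive ones, overlapping (-0.93 ± 0.48, SE; edgeR adjusted p = 0.553), and its difference ran from -1.52 without GFP-positive replicate 2 to -0.60 without GFP-positive replicate 1. Nt5c3b, for a nucleotidase inside the cell, was at 113 to 127 CPM and 87.8 to 102 CPM in the same order (-0.33 ± 0.15, SE; edgeR adjusted p = 0.473).

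**Figure D4:**
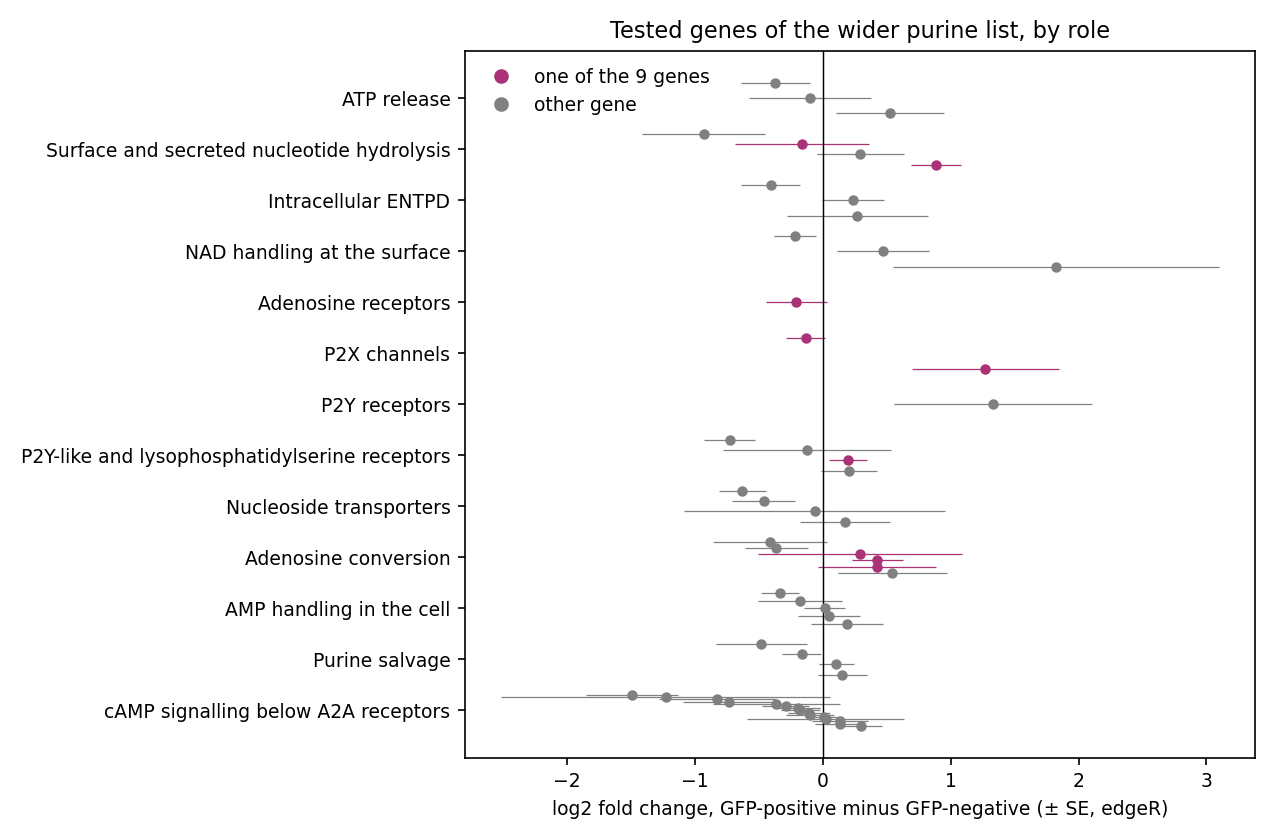
Log2 fold change, GFP-positive minus GFP-negative, ± SE from edgeR for the 55 tested genes of the 86-gene list, 1 point for each gene, in rows by role; the 9 genes are coloured. Values fall on both sides of 0 (26 positive, 29 negative), and the lowest point, Prkaca at -1.49, is in the cAMP row.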

How the data were processed

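Per the labels' protocols, cDNA was primed with oligo-dT and random hexamers, amplified by PCR and tagged with Nextera XT, without strand or molecular identifiers. The authors deposited raw counts per gene and TPM. The submitters' processing notes list mm10, STAR 2.7.10b, fastp 0.23.3, deepTools 3.5.1 and SAMtools 1.17; the read counter is not given in the sources used here. No 2 libraries of a group agreed within counting noise.

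Counts were tested with edgeR 4.0.16 in R 4.3.3: TMM, filterByExpr (minimum count 10), quasi-likelihood, Benjamini-Hochberg over 11074 genes, threshold 0.05. DESeq2 1.42.0 and limma 3.58.1 served as alternatives. TPM set genes side by side, and on log2(TPM + 1) or log2(TPM + 0.1) served as an alternative. A two-sided exact permutation test over libraries compared summed marker shares.

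The members and lists were chosen with earlier results of these data known. Named are the 9 genes, Tcf7, the 8 other list genes with the smallest p, and the 3 genes nearest to the member with the largest difference.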

Additional observations from a re-analysis of the deposited data

How the results depend on the processing

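Against 12 genes called by edgeR, library size alone gave 19, no filter on low counts 373, DESeq2 156, limma-voom 5, limma on log2(TPM + 1) 1, on log2(TPM + 0.1) 0 and on log2(TPM + 1) without a filter 0. Leaving out 1 library gave 0 to 50. Of the 9 genes, none called, no filter gave 2 (Nt5e, P2rx4), DESeq2 1 (Nt5e) and leaving out 1 library 0 to 1 (Nt5e, without GFP-positive replicate 3). Of the 86-gene list, no filter gave 5 (also Adora2b, Gpr34 and Prkaca), DESeq2 2 (Nt5e, Prkaca) and leaving out 1 library 0 to 2. Entpd1 ran from -0.98 to 0.20 when 1 library was left out, turning positive without GFP-negative replicate 3 or GFP-positive replicate 1 or 2; the other 8 genes kept their sign over 16 alternatives each. The mean marker share in GFP-positive minus GFP-negative libraries, in percentage points and with 1 library left out at a time, ran from -0.00375 to 0.250 for myeloid, -0.0116 to 0.201 for dendritic, -0.00174 to 0.0212 for natural killer, -0.000495 to 0.00982 for epithelial and -0.000323 to 0.0161 for stromal genes, each lowest without GFP-positive replicate 3, and from -0.000246 to 0.00218 for endothelial genes. As a share of the TPM total with all libraries it was 0.339 for myeloid and 0.0529 for natural killer genes. The causes were not tested. Deviations of same-numbered libraries correlated at 0.104, 0.0971 and 0.104, each library best with its own number. Those of libraries with different numbers correlated at -0.124 to 0.0195. The same-numbered values did not meet the limit of 0.1 for all pairs, and the main fit was unpaired, with the replicate block as an alternative. With that block 81 genes were called, none of the 9 or the 86-gene list, and Nt5e had an adjusted p = 0.0503 (edgeR). Ada, at 7 to 23 counts a library, is limited by depth.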

Other observations

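Outside the rule for named genes, several purine genes of the 86-gene list were picked after their values were seen because 1 library held most of their signal. Adora2b, for the low-affinity A2B adenosine receptor, stood at 16.1 CPM in GFP-positive replicate 3 and had no count in the other 5 libraries. P2ry14, for a UDP-sugar receptor, was at 2.91, 8.87 and 4.17 CPM in GFP-negative replicates 1, 2 and 3 and at 5.20, 4.14 and 30.4 CPM in GFP-positive replicates 1, 2 and 3. Bst1, for a surface enzyme that uses NAD, stood at 27.7 CPM in GFP-positive replicate 3 and at 0.23 to 5.89 CPM in the other 5. Of the 31 list genes that were not tested, 20 had a count, 15 of those were highest in GFP-positive replicate 3 and 6 had counts there alone. Of the 46 tested list genes outside the 9, 7 were highest there, beside 5 of the 9. The part of the other cell types in these values was not tested.

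Cd38, for the main NAD-consuming surface enzyme, was at 208, 153 and 188 CPM in GFP-negative replicates 1, 2 and 3 and at 160.2, 131 and 180.4 CPM in GFP-positive replicates 1, 2 and 3, with overlap. Art2b, for the ADP-ribosyltransferase that acts on P2X7, was at 85.3, 35.0 and 32.2 CPM in GFP-negative replicates 1, 2 and 3 and at 87.8, 63.5 and 60.8 CPM in GFP-positive replicates 1, 2 and 3. In both groups replicate 1 was the highest for Art2b, and the difference was 0.47 ± 0.36 (SE), with an adjusted p = 0.723 (edgeR). Both genes were chosen after their values were seen.

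The CD8 T cell markers took 0.00326% to 0.0123% of counts in GFP-negative and 0.00131% to 0.00536% in GFP-positive libraries, which overlapped. Endothelial markers took 0.00324% to 0.00810%, with Cdh5 and Vwf at 0 in all 6.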
